A study of Mus musculus with 6 samples.

Results

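The genes of the bone morphogenetic protein (BMP), transforming growth factor beta (TGF-beta) and activin pathway were examined in sorted cells of the embryonic mouse head. They were taken by symbol from the array's probe table: BMPs, numbered GDFs, the 3 TGF-betas, activin and inhibin beta subunits, their receptors, SMAD proteins, latent TGF-beta binding proteins, and Nog, Chrd, Grem1, Fst and Bambi. The rule found 54 genes on 101 probes, among 19057 named genes on 45281 probes. Bmp2k, a protein kinase that shares only the start of its name with the ligands, was also caught by it.

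Each of 6 arrays held RNA of sorted GFP-positive cells of embryos at embryonic day 9.5. On 3 arrays these were cells of the cranial neural crest, and on 3 they were cells of the cranial mesoderm. Crest cells came from crosses of Wnt1-Cre with the reporter line Z/EG, and mesoderm cells from crosses of Mesp1-Cre with Z/EG. In both, Cre recombinase switches on GFP for good, so the sort can hold any descendant of a cell that once used Wnt1 or Mesp1 regulatory sequence. Both crosses were on a background labelled C57Bl/6 x 129 x ARC/s and the labels number 3 replicates of each group. Nothing in the labels says that these came from separate litters or sorts, so p-values measure the spread between these samples, which may be technical. All 6 arrays lay on 1 BeadChip, crest at the first 3 positions and mesoderm at the others, so chip position and cell type cannot be told apart.

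BMPs, GDFs, activins and TGF-betas are secreted dimers of related subunits that bind pairs of type I and type II receptor kinases. The type I receptor then phosphorylates SMAD proteins, SMAD1, SMAD5 and SMAD9 for BMPs and SMAD2 and SMAD3 for TGF-betas and activins, which enter the nucleus and act on transcription. Antagonists such as noggin, chordin and gremlin hold BMPs away from their receptors, follistatin does so mainly for activins, and latent TGF-beta binding proteins tether inactive TGF-beta in the matrix. In the head, BMP signals take part in crest induction at the border of the neural plate and in patterning of the face and arches, and TGF-beta signals act in vessel growth and in the differentiation of crest mesenchyme.

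The sorts carried their own markers, those of other derivatives of the lineages and a few listed for other tissues. Between 30.8% and 34.1% of probes were detected on an array, with a median signal of 99.8 to 131 intensity units. Of 12 endothelial markers on the array, 10 were higher in mesoderm. The summed level of all 12 was 1380 to 1980 intensity units on crest arrays and 30900 to 37200 on mesoderm arrays. Egfl7, at log2 levels of 9.96 to 10.61 there, made up most of the crest sum. Kdr was not among the 10, at mean log2 levels of 5.65 in crest and 5.53 in mesoderm, and Tie1 was not tested. Pecam1, Tie1, Emcn, Sox18 and Sox17 were detected on no crest array. Of 11 markers of blood, platelets and macrophages 8 were higher in mesoderm, with summed levels of 305 to 3340 and 17300 to 24400 units. Pf4, Itga2b, Csf1r, Tal1, Lyl1, Gata1, C1qb and Lyz1 were detected on no crest array, and Ptprc on no array of either sort. The embryonic globin gene Hbb-bh1 was uneven in crest, at log2 levels of 11.34, 5.53 and 10.53 on replicates 1, 2 and 3, against 13.26, 13.10 and 13.51 in mesoderm. All 7 tested markers of the neural tube and midbrain, of 11 on the array, were higher in crest (6840 to 12000 units against 399 to 844). So were 4 of 6 tested markers of migratory crest, while 4 of 5 of head mesoderm were higher in mesoderm. Pax6, Sox1, Pax3 and Pax7 of the neural list, Foxd3 of the crest list and Myf5 of the head mesoderm list were detected on 0 arrays of either sort. Of 7 heart markers Myl4, Actc1 and Gata6 were higher in mesoderm, and Nkx2-5, Gata4, Tbx5 and Myl7 were detected on 0 arrays of either sort. Among 6 markers of surface epithelium, Krt8 and Cdh1 were detected on all 6 arrays and Krt18 on 3 crest and 2 mesoderm arrays. Krt14 was detected on 1 crest array, and Epcam and Trp63 on none. In such mixed samples more cells of a type and more RNA per cell cannot be told apart.

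Promoter windows are shown for the genes with the 3 largest differences toward mesoderm among the pathway genes, Bmp4, Tgfbr2 and Gdf10. That of Ltbp3, the smaller of the 2 called differences toward crest, is shown too, and that of Gdf1, the larger, is not. Each window runs from 250 bases before to 50 after the annotated start, from RefSeq on build GRCm38.p6, read 5′ to 3′ on the gene's strand. Capitals mark matches to GGCGCC, the core of a BMP-responsive SMAD element, or to CAGAC, the SMAD box, in either orientation (GTCTG on the other strand).
Bmp4: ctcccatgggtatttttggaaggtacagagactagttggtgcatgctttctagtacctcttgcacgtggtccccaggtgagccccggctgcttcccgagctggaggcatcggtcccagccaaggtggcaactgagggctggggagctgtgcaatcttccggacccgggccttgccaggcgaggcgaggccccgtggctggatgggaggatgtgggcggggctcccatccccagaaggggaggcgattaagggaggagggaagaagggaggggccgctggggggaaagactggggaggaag
Tgfbr2: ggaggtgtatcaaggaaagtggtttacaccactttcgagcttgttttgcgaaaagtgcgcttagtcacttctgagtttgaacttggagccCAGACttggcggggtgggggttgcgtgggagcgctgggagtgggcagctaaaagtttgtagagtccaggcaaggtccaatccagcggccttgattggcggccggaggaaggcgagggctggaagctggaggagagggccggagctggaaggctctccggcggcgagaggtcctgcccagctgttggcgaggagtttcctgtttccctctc
Gdf10: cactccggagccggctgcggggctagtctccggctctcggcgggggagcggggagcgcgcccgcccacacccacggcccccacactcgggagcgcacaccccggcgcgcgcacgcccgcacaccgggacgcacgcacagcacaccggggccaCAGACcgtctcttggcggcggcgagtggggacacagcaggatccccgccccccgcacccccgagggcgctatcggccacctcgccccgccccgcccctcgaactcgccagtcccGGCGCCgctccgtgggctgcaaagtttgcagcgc
Ltbp3: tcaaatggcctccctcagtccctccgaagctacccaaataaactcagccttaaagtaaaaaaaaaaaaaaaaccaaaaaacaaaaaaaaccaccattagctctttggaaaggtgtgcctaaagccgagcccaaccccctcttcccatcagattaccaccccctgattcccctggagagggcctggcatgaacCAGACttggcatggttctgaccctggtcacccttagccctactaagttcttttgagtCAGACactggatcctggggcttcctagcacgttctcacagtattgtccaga
The windows lie at chr14:46390620-46390919 on the minus strand for Bmp4, chr9:116175314-116175613 on the minus strand for Tgfbr2, chr14:33923337-33923636 on the plus strand for Gdf10 and chr19:5740650-5740949 on the plus strand for Ltbp3. The Bmp4 window held neither motif, that of Tgfbr2 held 1 CAGAC match, that of Gdf10 held 1 of each and that of Ltbp3 held 2 CAGAC matches. Windows were on hand for 38 of the pathway genes, 48 in all, since some genes have several starts. GGCGCC was present in 29.2% of them (14 windows) and in 11.9% of all 32851 windows of the table, and CAGAC in 47.9% and 49.6%. Windows of the same gene were counted separately, and the sets were not matched for base composition. The table also covers genes with no probe on the array, and a match is a stretch of letters only. No match in a window says nothing of the factor.

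Of the 54 genes, 29 passed the detection filter (a detection p below 0.05 on 3 or more arrays) and were tested. Of the other 25, 22 were detected on no array and 3 on 1 or 2 arrays. A gene that passed only through the sort in which it is high had to differ, so the 29 do not stand for the whole set. By limma with Benjamini-Hochberg adjustment over 9214 genes, 5 of the 29 were higher in mesoderm (17.2%), where 10.1% of all genes tested were, and 2 were higher in crest (6.9%), where 8.25% of all were. The median log2 difference, mesoderm minus crest, was -0.06 over the 29 genes and -0.07 over all genes tested. The 5 were Bmp4, Tgfbr2, Gdf10, Tgfb1 and Tgfbr3, the 2 were Gdf1 and Ltbp3, and the remaining 22 were not past the threshold. For Smad2 and Smad3, well above the detection limit, the 95% interval lay within 1 log2 unit of 0 on either side. It did so too for Bmp5, Smad6, Ltbp4 and Chrd, but these lay near the limit, where background and offset shrink differences and a 2-fold change cannot be left out. For the other 16 the interval reached beyond 1 unit. Groups without overlap, in either direction, were found in 11 of the 29 genes and in 3431 of all 9214 tested. Levels below are log2 intensities after background correction and quantile normalization, on which the lowest detected value of an array was 5.19 to 5.38. The plot of log2 levels by array shows the tested genes grouped by role.

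**Figure D1:**
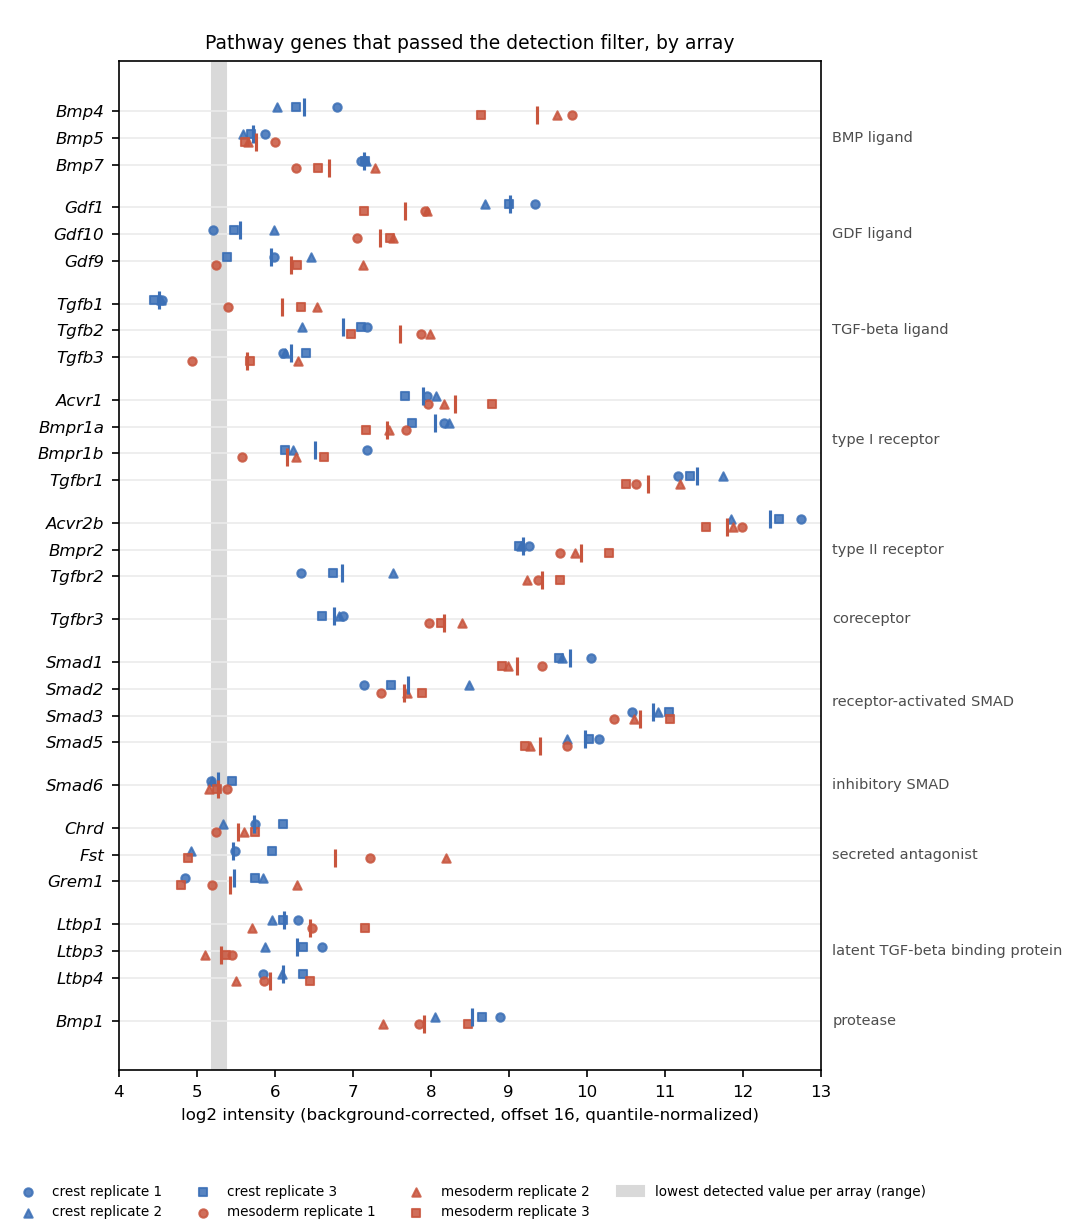
Log2 intensity (x axis) of each of the 29 tested pathway genes (y axis, grouped by role) on each of the 3 crest arrays (blue) and 3 mesoderm arrays (red), with the group means as vertical ticks and the range of the lowest detected value per array as a grey band. Bmp4 stood at 6.03 to 6.80 on crest arrays and at 8.64 to 9.81 on mesoderm arrays, and Smad3 at 10.58 to 11.05 and 10.35 to 11.07.

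Among the 24 ligand genes, 9 were tested, and 3 of these were called toward mesoderm and 1 toward crest, where 10.1% and 8.25% of all genes were. Bmp4, a ligand needed for mesoderm formation and for the dorsal neural tube, had log2 levels of 6.80, 6.03 and 6.27 on crest replicates 1, 2 and 3 and of 9.81, 9.62 and 8.64 on mesoderm replicates 1, 2 and 3. Every mesoderm array lay above every crest array, and mesoderm replicate 3 was the lowest of its group. The log2 difference was 2.99 ± 0.35 (SE, n = 3 per group), a fold of 7.96, with limma's adjusted p = 0.000554. The call held on leaving out each of the 6 arrays. The bright signal stood on 1 of 2 lines for Bmp4 whose deposited detection p-values each matched the signal of the other line. With the deposited p the dim line was read in its place, which gave 0.10 (adjusted p = 0.735).

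Gdf10, also called BMP3B, had log2 levels of 5.21, 5.99 and 5.48 on the crest arrays and 7.06, 7.51 and 7.48 on the mesoderm arrays. The mesoderm arrays lay close together and all above crest, where it was detected on 2 of 3 arrays, so its difference of 1.79 ± 0.27 (SE, n = 3 per group, limma adjusted p = 0.0023) rests partly on values near background. Its adjusted p was at most 0.023 over 17 alternatives, and the difference was 0.79 to 1.97. Tgfb1, the TGF-beta abundant in platelets, white cells and endothelium, was detected on no crest array and on all 3 mesoderm arrays. Its log2 levels were 4.56, 4.54 and 4.45 in crest and 5.40, 6.54 and 6.34 in mesoderm, replicate 1 being the lowest. Mesoderm exceeded crest by at least 1.8-fold (limma adjusted p = 0.00885), and without any 1 of the mesoderm arrays it no longer passed the detection filter and was not tested. The endothelial and blood marker sums given above were also higher on every mesoderm array, and their part in the levels of Tgfb1 and Gdf10 was not tested.

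Gdf1, a ligand of left-right patterning, went the other way. Its log2 levels were 9.34, 8.70 and 9.0 in crest and 7.92, 7.95 and 7.14 in mesoderm, with no overlap and mesoderm replicate 3 the lowest array. The difference was -1.35 ± 0.29 (SE, n = 3 per group, limma adjusted p = 0.0144), and the call was lost without crest replicate 1 (adjusted p = 0.0548) or crest replicate 3 (0.0645), and with no detection filter (0.052). In the mouse Gdf1 can share a transcript with the ceramide synthase gene Cers1, whose 1 probe was detected on 0 arrays. Which transcript gave the Gdf1 signal was not tested.

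The other tested ligands did not pass. Tgfb2, needed for heart and face development, had log2 levels of 7.18, 6.35 and 7.10 in crest and 7.88, 7.99 and 6.98 in mesoderm. Its groups overlapped through mesoderm replicate 3 (0.74 ± 0.34, adjusted p = 0.179). Tgfb3, a ligand of palate fusion, stood at 6.10, 6.13 and 6.40 in crest and at 4.94, 6.30 and 5.68 in mesoderm, where replicate 1 was not detected (-0.56 ± 0.34, adjusted p = 0.296, but 0.042 with array weights). The 3 TGF-beta genes therefore gave 1 call toward mesoderm and 2 differences of opposite sign that were not past the threshold.

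Bmp7, a ligand of eye, kidney and head development, stood at 7.11, 7.17 and 7.15 in crest and at 6.27, 7.29 and 6.56 in mesoderm (-0.44 ± 0.29, adjusted p = 0.333). The crest arrays were nearly equal and mesoderm replicate 2 lay above them. Bmp5, a ligand of skeletal development, was near the detection limit in both sorts, at 5.59 to 5.87 and 5.62 to 6.00 (0.04 ± 0.22, adjusted p = 0.927). Gdf9, best known as an oocyte factor, varied more within the groups than between them, at 5.39 to 6.47 in crest and 5.24 to 7.13 in mesoderm (0.26 ± 0.47, adjusted p = 0.764).

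The remaining ligands gave no level. Bmp2, Bmp3, Bmp6, Bmp8b, Bmp10, Bmp15, Gdf2, Gdf3, Gdf5, Gdf6, Gdf11, Inhba, Inhbc and Inhbe were detected on 0 arrays, and Bmp8a on mesoderm replicate 1 alone. Absence of a signal at this sensitivity is not absence of the transcript, and each of these genes was read by 1 or 2 probes. None of the 3 activin and inhibin beta subunit genes on the array was thus detected in either sort.

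Of 13 receptor genes 8 were tested, and 2 of these were called toward mesoderm and 0 toward crest, beside the same 10.1% and 8.25% of all genes. Tgfbr2, the type II receptor that binds TGF-beta itself, had log2 levels of 6.34, 7.51 and 6.74 on the crest arrays and 9.38, 9.23 and 9.65 on the mesoderm arrays. The mesoderm arrays lay within 1 unit of each other and well above crest replicate 2, the highest of its group. The difference was 2.56 ± 0.32 (SE, n = 3 per group), a fold of 5.89, with limma's adjusted p = 0.000736, and it held on leaving out each array. As for Bmp4, the bright signal stood on a line whose deposited p matched the signal of another Tgfbr2 line, and with the deposited p a dim line gave 0.17 (adjusted p = 0.605). Of 4 Tgfbr2 probes 1 was kept. Another, whose deposited p went with its signal, was at 4.49 to 4.54 on all 6 arrays and detected on 0.

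Tgfbr3 encodes betaglycan, a coreceptor that presents TGF-beta to the type II receptor. Its log2 levels were 6.88, 6.82 and 6.60 in crest and 7.98, 8.40 and 8.13 in mesoderm, tight in both sorts and without overlap. They came from 1 of 2 probes, and the other was detected on 0 arrays, at 4.37 to 4.60. The difference was 1.41 ± 0.22 (SE, n = 3 per group, limma adjusted p = 0.00287). It held on leaving out each array and was lost under median scaling alone (1.09, adjusted p = 0.0713). That scaling moved the median of all genes from -0.07 to -0.30. The endothelial marker sum was also higher on every mesoderm array, and its part in the levels of Tgfbr2 and Tgfbr3 was not tested.

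The other receptor genes did not pass. Tgfbr1, the type I receptor that works with TGFBR2, stood at 11.17, 11.75 and 11.32 in crest and at 10.63, 11.20 and 10.50 in mesoderm (-0.63 ± 0.27, adjusted p = 0.146), with mesoderm replicate 2 inside the crest range. Its second kept probe, near background, gave -0.09. Among BMP receptors, Bmpr2, the type II receptor, was close to the threshold toward mesoderm, at 9.26, 9.16 and 9.13 against 9.65, 9.85 and 10.28. Its groups did not overlap (0.74 ± 0.23, adjusted p = 0.0593), and it passed without background correction (0.65, adjusted p = 0.0377), with an offset of 50 (0.71, 0.0426), with the authors' log2 values (0.66, 0.0373) and with array weights (0.67, 0.0262). Under median scaling it was 0.42 (adjusted p = 0.483), and with the replicate number as a block its adjusted p was 0.0722. It was read from 1 probe without an accession, and its other 3 probes were detected on 0 arrays.

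The type I receptor gene Bmpr1a had the opposite sign, at 8.17, 8.23 and 7.76 in crest and 7.68, 7.46 and 7.17 in mesoderm, without overlap (-0.61 ± 0.24, adjusted p = 0.117). Bmpr1b, a type I receptor of skeletal precursors, was 7.18 on crest replicate 1 and between 5.58 and 6.63 on the other 5 arrays (-0.35 ± 0.37, adjusted p = 0.567). Acvr1, also called ALK2, which binds BMPs, stood at 7.67 to 8.07 in crest and 7.97 to 8.78 in mesoderm (0.41 ± 0.27, adjusted p = 0.338). Acvr2b, a type II receptor of activins and some BMPs, stood at 11.85 to 12.75 and 11.53 to 11.99 (-0.56 ± 0.28, adjusted p = 0.218). Both receptor genes called toward mesoderm thus encode proteins that bind TGF-beta.

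Acvr1b, Acvr1c and Acvr2a, receptors of activin and Nodal ligands, and Bambi, a receptor-like inhibitor without a kinase, were detected on 0 arrays. Acvrl1, the endothelial type I receptor also called ALK1, could not be settled. The signal on its line was 4.60, 4.60 and 4.64 log2 units in crest and 5.98, 5.13 and 5.51 in mesoderm, detected on mesoderm replicates 1 and 3 only, 1 array short of the filter. Its deposited p matched the signal of a nearby line with no gene name, and which of the values is that of the named probe could not be told.

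**Figure D2:**
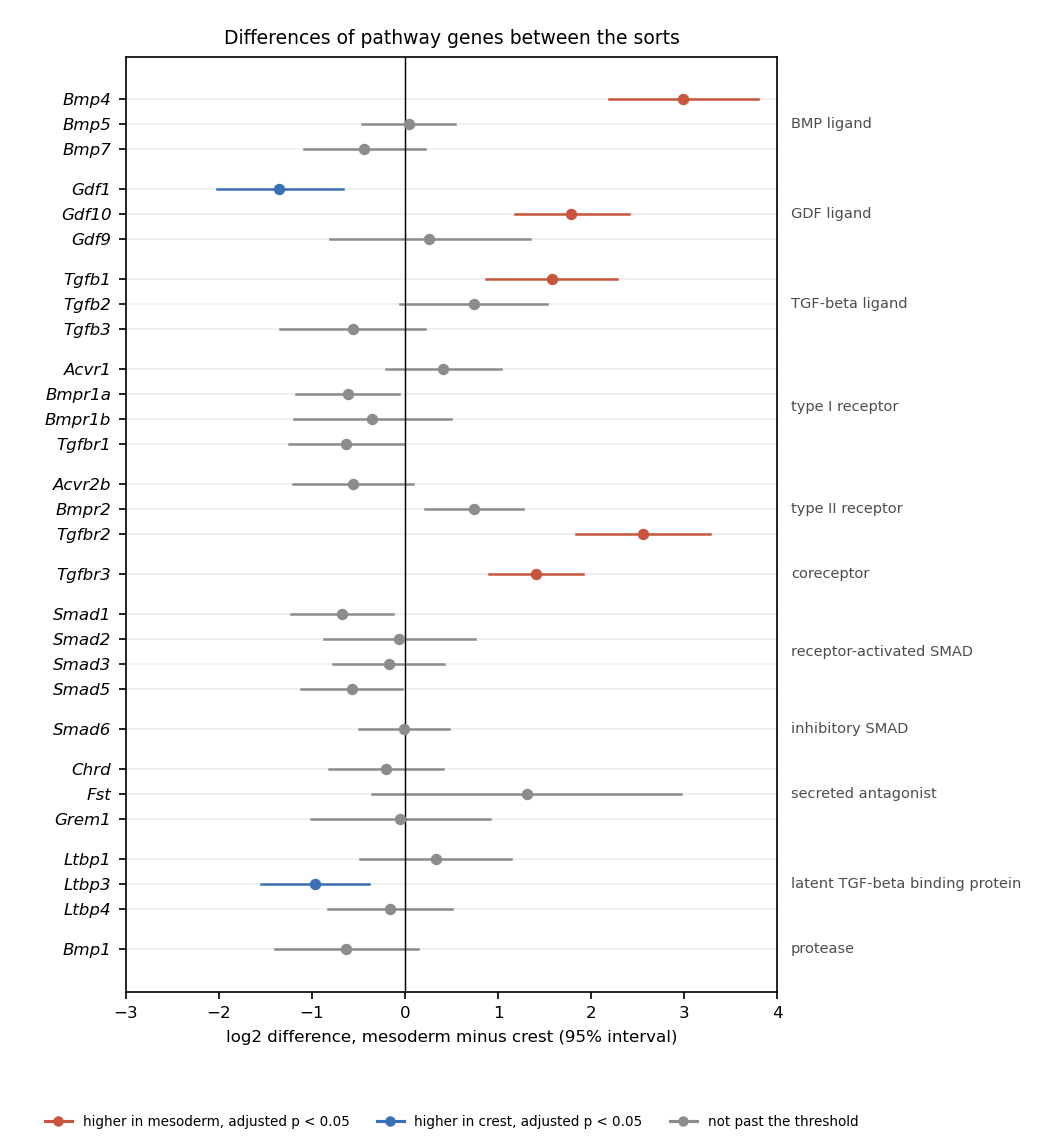
Log2 difference, mesoderm minus crest, of the 29 tested pathway genes with 95% intervals from limma's moderated variance (n = 3 arrays per group), grouped by role. Red marks the 5 genes higher in mesoderm, blue the 2 higher in crest and grey the 22 not past the threshold. Bmp4 at 2.99 and Tgfbr2 at 2.56 lie farthest from 0.

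Of 7 SMAD genes 5 were tested and 0 were called in either direction, beside 18.3% of all genes. Smad4 was not among the 54 genes. All 5 differences were below 0, with a median of -0.17 beside -0.07 over all genes. Over all 9214 genes tested, 4104 differences were above 0. The signs of Smad2 and Smad6 turned under some alternatives. Smad1, a mediator of BMP signals, stood at 10.05, 9.68 and 9.64 in crest and 9.42, 8.99 and 8.91 in mesoderm. The groups did not overlap, but the difference of -0.68 ± 0.24 was not past the threshold (adjusted p = 0.0859). A second Smad1 probe, dimmer in crest (9.14, 8.51 and 8.94) but well above the detection limit, gave -0.02. The deposited p of its line did not go with the signal. Another probe near background gave -0.45. Smad5, which acts beside SMAD1, stood at 10.15, 9.75 and 10.03 against 9.74, 9.27 and 9.21 (-0.57 ± 0.24, adjusted p = 0.138). Here too every crest array lay above every mesoderm array. Such separation, in either direction, was found in 3431 of the 9214 genes tested.

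Smad3, a mediator of TGF-beta and activin signals, stood at 10.58, 10.91 and 11.05 in crest and 10.35, 10.61 and 11.07 in mesoderm (-0.17 ± 0.26, adjusted p = 0.713). Smad2, its partner, was at 7.14, 8.49 and 7.49 against 7.36, 7.69 and 7.89 (-0.06 ± 0.35, adjusted p = 0.931), and crest replicate 2 was the high array. Without it the difference was 0.33. The inhibitory Smad6, which blocks BMP receptors and SMAD1, lay at the detection limit in both sorts, at 5.18 to 5.45 and 5.15 to 5.39 (-0.01 ± 0.21, adjusted p = 0.983). Smad7, the other inhibitory SMAD gene, and Smad9, a further BMP mediator, were detected on 0 arrays.

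Of the 9 genes for antagonists, latent TGF-beta binding proteins and the protease BMP1, 7 were tested, with 1 call toward crest and 0 toward mesoderm (all genes, 8.25% and 10.1%). The antagonists gave no call. Fst, which encodes follistatin, was uneven in mesoderm, at 7.22, 8.19 and 4.89 log2 units, against 5.49, 4.93 and 5.96 in crest. Mesoderm replicate 3 and crest replicate 2 were not detected, and the groups overlapped (1.31 ± 0.73, adjusted p = 0.258). Without that array the difference was 2.27 (limma adjusted p = 0.00895), so that 1 array decides the call. Chrd, the gene of chordin, stood at 5.33 to 6.11 in crest and 5.25 to 5.74 in mesoderm (-0.20 ± 0.27, adjusted p = 0.66).

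Grem1, the gene of gremlin, was detected on 2 crest arrays and 1 mesoderm array, at 4.85 to 5.85 and 4.80 to 6.29 (-0.05 ± 0.42, adjusted p = 0.954). Nog, the gene of noggin, was detected on 0 arrays. Ltbp3, which helps to secrete latent TGF-beta, had log2 levels of 6.60, 5.88 and 6.36 in crest and 5.45, 5.11 and 5.37 in mesoderm, detected there on 1 of 3 arrays. Of its 3 probes 1 was kept, and the others were detected on 0 arrays. The groups did not overlap (-0.97 ± 0.25, SE, n = 3 per group, limma adjusted p = 0.0304). This was the least stable of the 7 calls, lost in 10 of 17 alternatives. Among these were no background correction (-0.34, adjusted p = 0.108), the authors' values (-0.36, 0.103), the deposited p (-0.06, 0.863) and the omission of any array but crest replicate 2 (adjusted p 0.0569 to 0.122).

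Ltbp1, the founding member of its family, stood at 5.96 to 6.30 in crest and 5.71 to 7.16 in mesoderm (0.33 ± 0.35, adjusted p = 0.579). Ltbp4, of elastic fibres, stood at 5.85 to 6.36 and 5.50 to 6.45 (-0.16 ± 0.29, adjusted p = 0.757). Ltbp2, a matrix protein that does not bind latent TGF-beta, was detected on 1 array of each sort and was not tested. Bmp1, a metalloprotease that matures collagens and cleaves chordin, differed by probe. Its brightest probe stood at 8.89, 8.06 and 8.66 in crest and 7.85, 7.39 and 8.48 in mesoderm, with overlap through mesoderm replicate 3 (-0.63 ± 0.34, adjusted p = 0.242).

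Of its other kept probes, 2 were lower in mesoderm by -1.25 ± 0.28 and -1.22 ± 0.27 (limma adjusted p = 0.0171 and 0.0157 over 13057 probes), and 1 near background gave 0.08. The mean of its kept probes was called higher in crest (-0.76, adjusted p = 0.0284). Of 101 probes of the pathway genes 38 were kept, and 6 genes had more than 1. Bmp1 was the only one of these 6 whose kept probes disagreed on the call. Bmp2k was detected on 0 arrays.

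The plot of differences under the alternatives sets these calls side by side.

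**Figure D3:**
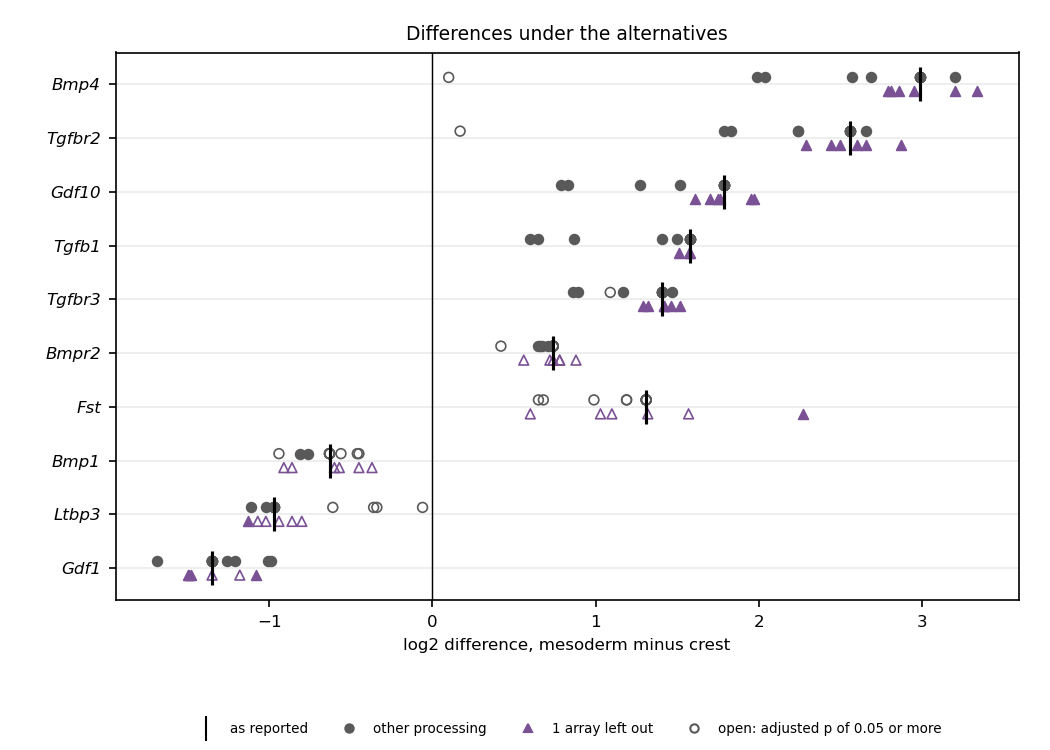
Log2 difference, mesoderm minus crest, of the 7 called genes and of Bmpr2, Fst and Bmp1, as reported (black tick), under other processing (grey circles) and with 1 array left out (purple triangles). Filled marks have a limma adjusted p under 0.05 and open marks do not. The 2 open circles near 0 for Bmp4 and Tgfbr2 are the values read with the deposited detection p, 0.10 and 0.17.

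The partners of the pathway outside the rule are other binding proteins, coreceptors, SMAD cofactors and the like. Of 60 listed, 53 were on the array and 27 were tested, with 5 called toward mesoderm (18.5%, beside 10.1% of all genes tested), 3 toward crest (11.1%, beside 8.25%) and a median of 0.05 (all genes, -0.07). Nrros, which holds latent TGF-beta on macrophages and microglia, stood at 6.06, 5.93 and 5.71 in crest and 11.17, 10.42 and 10.91 in mesoderm (4.93 ± 0.26, adjusted p = 7.37e-06), the largest difference of the list. With the deposited p a dim line gave -0.13. Eng, the gene of endoglin, an endothelial coreceptor, was detected on 1 crest array and higher by 3.64 ± 0.34 (adjusted p = 0.000142). Eng is itself among the 12 endothelial markers, and the summed level of the other 11 was 1340 to 1950 units in crest and 30600 to 36700 in mesoderm. That sum and that of blood, platelets and macrophages were higher on the same arrays, and their part in these values was not tested.

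Dcn, the gene of decorin, a matrix proteoglycan that binds TGF-beta, exceeded its crest level by at least 3.18-fold (limma adjusted p = 0.000468). With the deposited p a dim line gave 0.14 (adjusted p = 0.554). Nbl1, a BMP antagonist of the DAN family, was higher by 1.49 ± 0.33 (adjusted p = 0.0149) and Fkbp1a, a small protein that holds type I receptors inactive, by 1.11 ± 0.23 (adjusted p = 0.0117). Both calls were lost without crest replicate 3 and under median scaling, that of Nbl1 also with no detection filter (adjusted p = 0.0647), and that of Fkbp1a also without mesoderm replicate 1. Toward crest, the BMP coreceptor gene Rgma differed by -1.50 ± 0.38 (adjusted p = 0.0268), the SMAD corepressor gene Tgif1 by -0.92 ± 0.22 (0.0218) and the deubiquitinase gene Usp15 by -0.91 ± 0.24 (0.0312). When either of crest replicates 1 and 2, or mesoderm replicate 1, was left out, none of these 3 was past the threshold. Without crest replicate 3 only Tgif1 was, without mesoderm replicate 2 Tgif1 was lost, and without mesoderm replicate 3 Usp15 was. Usp15 was lost in 10 of 17 alternatives, among them no background correction (-0.33, adjusted p = 0.099), the authors' values (-0.35, 0.0958) and the deposited p, with which a dim line gave -0.06 (0.862). Rgma was also lost with the deposited p (adjusted p = 0.0552) and with no detection filter (0.109).

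Genes known to respond to BMP or TGF-beta in various cells were called in both directions. Of 29 on the array 18 were tested, with 5 called toward mesoderm (27.8%, beside 10.1% of all genes), 3 toward crest (16.7%, beside 8.25%) and a median of 0.10 (all genes, -0.07). The Id genes, inhibitors of bHLH factors and common BMP targets, gave no call. Id2 stood at 10.58, 9.84 and 9.93 in crest and 9.56, 9.29 and 7.68 in mesoderm, with no overlap (-1.28 ± 0.48, adjusted p = 0.101). Mesoderm replicate 3 was its lowest array. Id4 was detected on 2 crest arrays and 0 mesoderm arrays and was not tested. Id1 stood at 11.74 to 11.99 in crest and 11.22 to 11.52 in mesoderm (-0.48 ± 0.21, adjusted p = 0.154), also with no overlap. The groups did not overlap in 11 of the 18 tested response genes and in 3431 of all 9214 tested. Id3 stood at 10.04 to 10.79 and 10.27 to 10.48 (-0.02 ± 0.25, adjusted p = 0.965). Msx1, a BMP target in the arches, stood at 8.74 to 9.21 and 8.25 to 10.20 (0.15 ± 0.46, adjusted p = 0.862), with mesoderm replicate 2 the highest array.

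Toward mesoderm were the smooth muscle actin gene Acta2 by 3.38 ± 0.44 (adjusted p = 0.000951), the blood and endothelial factor gene Gata2 by 3.32 ± 0.32 (0.000171) and the matrix gene Tgfbi by 1.90 ± 0.21 (0.000401). Junb, an immediate early gene, was higher by 1.34 ± 0.29 (0.0145) and Snai2, a repressor of epithelial genes, by 0.91 ± 0.23 (0.0282). Acta2, Gata2 and Tgfbi passed in all 17 alternatives. Junb was lost without crest replicate 2 or mesoderm replicate 1, without background correction (0.58, adjusted p = 0.0506), with no detection filter (0.0518) and with the deposited p. Snai2 was lost without any array but crest replicate 1, and also under median scaling (0.70, adjusted p = 0.178), with an offset of 50 (0.56, 0.0556), with no background correction (0.31, 0.104) and with the authors' values (0.33, 0.10). Toward crest were the T-box genes Tbx3 by -2.41 ± 0.34 (0.00151) and Tbx2, detected on no mesoderm array and exceeded there by at least 2.97-fold in crest (0.00219). Tgif1, Skil and Pmepa1 stand in both lists, and Tgif1 is also among the response genes called toward crest.

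**Figure D4:**
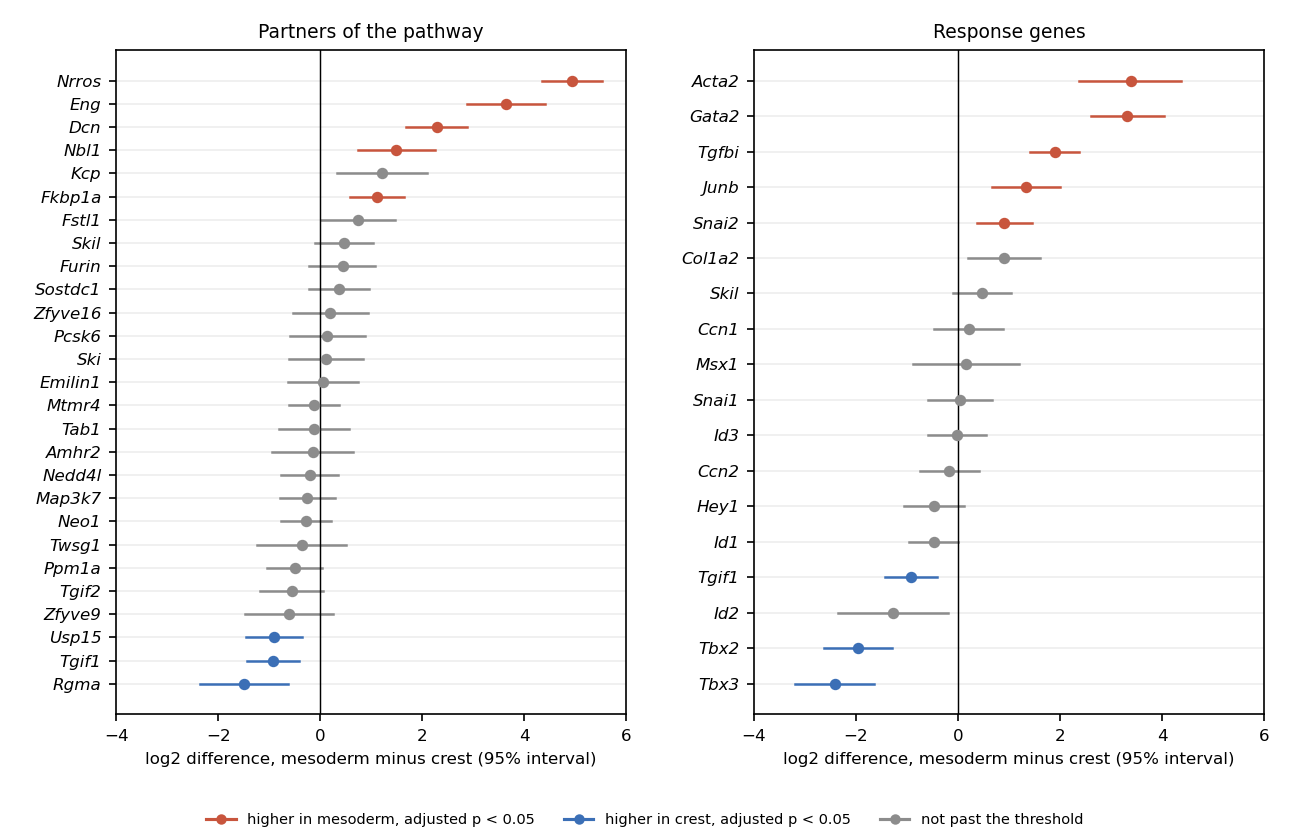
Log2 difference, mesoderm minus crest, with 95% intervals for the 27 tested partners of the pathway (left) and the 18 tested response genes (right), in order of size, coloured by call. Nrros at 4.93 and Eng at 3.64 lead the partners, and Acta2 at 3.38 and Gata2 at 3.32 the response genes, while Id2 at -1.28 and Id1 at -0.48 are not past the threshold.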

How the data were processed

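RNA was amplified, labelled with biotin as cRNA and hybridized to Illumina mouse whole-genome arrays, per the labels' protocols. The authors' deposited table of raw values gives a linear signal intensity per probe and array, and beside it a deposited detection p-value. The authors' deposited log2 values have the same ranks as these signals and were used as an alternative. The summary software is not given in the sources used here.

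In 12273 lines (27.1%) the deposited p did not go with the signal: it lay over 0.06 from the median p of the 101 probes nearest in signal. That median, kept from falling as the signal falls, was therefore used as the detection p on every line. Of 33 such lines of pathway genes, 32 carried the p of another line of the same gene within 12 lines, to within 0.02 on every array. For these 32 lines the values are therefore those of a gene, not of a given probe, though some also matched lines not of that gene. Bright lines of partners, response genes and markers were not traced. Tracing to another gene was made only for dim lines, which do not pass the detection filter. The 24 lines so traced were left out, which removed no tested value.

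Signals were background-corrected by limma 3.58.1 in R 4.3.3 (normal-exponential model from the detection p-values), given an offset of 16, quantile-normalized and put on the log2 scale. The kept probe with the highest mean stood for a gene. limma's linear model with empirical Bayes variance compared 3 arrays with 3, two-sided. Its test on simulated data planted changes only in probes well above the detection limit, so it does not speak to calls near that limit. A fold against a group detected on no array is a lower bound, each dim array standing at its lowest detected value or its own, if higher. The precision is limited by the number of arrays. Members, lists and the naming rule (every tested member, and up to 8 called genes per list and direction) were chosen with earlier results of these data known. Id1, Id2, Id3, Id4, Msx1, Skil and Pmepa1 were added after their values were seen. Probe symbols were those of the array's table, and 0 of 101 differed from a current annotation.

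The replicate numbers do not mark a pairing in the labels. The alternatives concerned background, offset, scaling, source of values, detection p, filter, probe choice, array weights, a replicate block and each array left out.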

Additional observations from a re-analysis of the deposited data

How the results depend on the processing

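Of 481 values of pathway genes under 17 alternatives, 444 kept their direction and their side of the threshold, 16 lost a call, 8 gained one and 13 changed sign, all 13 in genes without a call. With 1 array left out at a time, Bmp5 ranged from -0.08 to 0.11, Gdf9 from -0.19 to 0.76, Grem1 from -0.36 to 0.27, Ltbp1 from -0.03 to 0.69, Ltbp4 from -0.43 to 0.05, Smad2 from -0.34 to 0.33 and Smad6 from -0.06 to 0.05. Bmp5 was -0.13 under median scaling and Smad2 0.05 with array weights. Without background correction the called differences were smaller, at 1.99 for Bmp4, 1.79 for Tgfbr2, 0.79 for Gdf10, 0.60 for Tgfb1, 0.86 for Tgfbr3 and -0.99 for Gdf1, all still past the threshold. With the deposited detection p, where dim lines were read for some genes, Nrros gave -0.13 and Junb 0.00. The count of pathway genes higher in crest was 1 without background correction, with an offset of 50, with the authors' values and with the deposited p, 0 with no filter, 4 with array weights and 0 to 2 with 1 array left out. That of genes higher in mesoderm was 3 with the deposited p and 4 to 5 with 1 array left out. Partners higher in mesoderm numbered 3 under median scaling, 3 with the deposited p and 3 to 5 with 1 array left out, and those higher in crest 1 with the deposited p and 0 to 2 with 1 array left out. Response genes higher in mesoderm numbered 3 without background correction and 3 to 5 with 1 array left out, and those higher in crest 5 with array weights and 1 to 3 with 1 array left out. Over all genes 1687 calls became 2762 with array weights and 807 to 1351 with 1 array left out, where a group has 2 arrays and less power. With the replicate number as a block the calls over all genes were 1946 and those of pathway genes 5 and 2 as before. Same-numbered arrays correlated at 0.12, 0.32 and 0.02 in their deviations, and crest replicate 1 went best with mesoderm replicate 3 (0.20). Deviations within groups of 3 arrays depend on each other, so these values cannot decide whether the numbers mark pairs. The labels name no pairing, and none was used outside the block alternative. Genes near background are limited by signal: 22 of 54 were detected on no array.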

Other observations

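The exchange of detection p-values between lines of the table touched 13 of the 54 genes. For Ltbp1 the deposited p of all 7 lines matched the signal of another Ltbp1 line, and for Bmp4 that of both lines did. Acvrl1, with 1 line, had a p that matched an unnamed line nearby. Of the 7 called genes, 3 (Bmp4, Tgfbr2 and Ltbp3) were read from such a line.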
